A study of Homo sapiens with 6 samples.

Results

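Expression of 10 genes of the ATF4 branch of the integrated stress response was followed in A2780, a long-established cell line of human ovarian cancer, with and without a short hairpin that targets the spliceosome protein USP39. The genes were ATF4, ATF3, DDIT3, CEBPB, PPP1R15A, TRIB3, SESN2, DDIT4, ASNS and CHAC1. They were chosen by name from known genes of the branch, with their shUSP39 and pGIPZ-NC levels in these libraries already in view, so those levels are given as a description and carry no test. Of the 10 genes, 9 had a row among the 16571 gene symbols of the count table and 8 passed the filter on low counts, as did 10695 symbols in all. CEBPB had no row and was not analysed here, and ATF3 was too low to pass.

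Both groups were A2780 cells infected with lentivirus. The pGIPZ-NC group carried the control form of the pGIPZ hairpin vector and the shUSP39 group carried a USP39 hairpin, with 3 libraries in each group that the series describes as biological replicates. In the study's methods, hairpins were placed in pGIPZ and stable lines were made by infection and puromycin selection, which both groups would then share. The hairpin behind each shUSP39 library was not given in the labels, nor whether the 3 libraries of a group came from separate infections. Since the USP39 transcript was not analysed here, the labels were not checked against it.

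Total counts lay between 28294819 and 32939264 per library. Replicates 2 and 3 of shUSP39 had a count in 15446 and 14890 symbols, against 12662 to 12819 in the other 4 libraries. For the 8 stress response genes past the filter, the ratio of shUSP39 replicate 1 alone to the pGIPZ-NC mean is therefore also given below. No such ratio is given for the other genes, and no fit left out both replicates 2 and 3 of shUSP39. Of 7 markers of ovarian and epithelial cancer cells only KRT18 had over 10 counts in every library, and KRT8 had 26 to 37 counts in pGIPZ-NC against 0 to 3 in shUSP39. Of 5 markers of other cell types only the fibroblast collagen COL1A1 had over 10 counts in every library, and LUM (lumican), also a fibroblast gene, had 176, 170 and 97 counts in pGIPZ-NC against 16, 3 and 16 in shUSP39. Fewer cells of a type, less RNA per cell and a difference in which reads were counted cannot be told apart in these bulk libraries.

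In the integrated stress response, any of several kinases phosphorylates the translation factor eIF2, which lowers general protein synthesis while the messenger RNA of ATF4 is translated more. ATF4 is a basic leucine zipper transcription factor that binds DNA together with C/EBP family partners and raises genes of amino acid supply, redox defence and, under long stress, cell death. Because ATF4 is controlled largely in translation, its messenger RNA is not a direct readout of the branch, and its targets are usually read in its place.

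A motif known for ATF4 and C/EBP dimers, the C/EBP-ATF composite element, is TGATGCAA. The reference sequence was searched for it on both strands, from 1000 bases before to 1000 bases after the start of 1 coding transcript per gene. It was found around 6 of the 10 genes, and 3.69% of 19807 such windows hold it. Since the names came from known targets of this factor, nothing is read from that share. The sites are shown because ATF4 targets are commonly recognised by them. Each line gives the gene and the position of the motif in bases from the start of that transcript (negative, or upstream, before it), with the motif or its reverse complement TTGCATCA in capitals and 10 flanking bases on each side, 5′ to 3′ on the gene's strand, from GRCh37 (hg19).
ATF3, upstream at -203, chr1:212781890-212781917, plus strand: ctccccgaacTTGCATCAccagtgcccc
ATF3, upstream at -21, chr1:212782072-212782099, plus strand: ataaaaggggTGATGCAAcgctctccaa
DDIT3, upstream at -306, chr12:57914586-57914613, minus strand: ttgccaaacaTTGCATCAtccccgcccc
DDIT3, at +820 in an intron, chr12:57913461-57913488, minus strand: tgtgtaaccaTTGCATCAggccagcccc
DDIT4, upstream at -942, chr10:74032726-74032753, plus strand: tcctcggtccTGATGCAAccgtctggat
CHAC1, upstream at -209, chr15:41245450-41245477, plus strand: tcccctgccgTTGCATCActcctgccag
SESN2, at +553 in an intron, chr1:28586571-28586598, plus strand: gggacccgggTTGCATCAactggcagcc
TRIB3, at +133 in an exon, chr20:361526-361553, plus strand: tagctccggtTTGCATCAcccggaccgg

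In TRIB3 the same 28 bases recurred 166 and 199 bases after the start of the chosen transcript, at chr20:361559-361586 and chr20:361592-361619, so that 3 identical copies lay in 1 exon. The windows of ATF4, CEBPB, ASNS and PPP1R15A held no TGATGCAA. Within 250 bases before the start, ASNS held 1 match to the looser motif TGATGNAA, of which TGATGCAA is one form. That looser motif was found in that shorter window in 2.19% of genes and in 3 of the 10 (ASNS, ATF3 and CHAC1). PPP1R15A held the cyclic AMP response motif TGACGTCA, a palindrome bound by ATF and CREB proteins, which 4.18% of windows hold. The ASNS and PPP1R15A sites are shown for comparison with those above, with the matching bases in capitals.
ASNS, upstream at -68, chr7:97501771-97501798, minus strand: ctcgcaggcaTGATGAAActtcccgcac
PPP1R15A, upstream at -58, chr19:49375610-49375637, plus strand: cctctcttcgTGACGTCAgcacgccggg

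Introns and exons are those of the chosen transcript. Other transcripts start elsewhere, so the sites shown for ATF3, DDIT3, CHAC1, ASNS and PPP1R15A lie within the annotated span of the whole gene, as do those of TRIB3 and SESN2, and only that of DDIT4 lies outside it. A match in letters is a description and says nothing of binding in these cells.

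**Figure D1:**
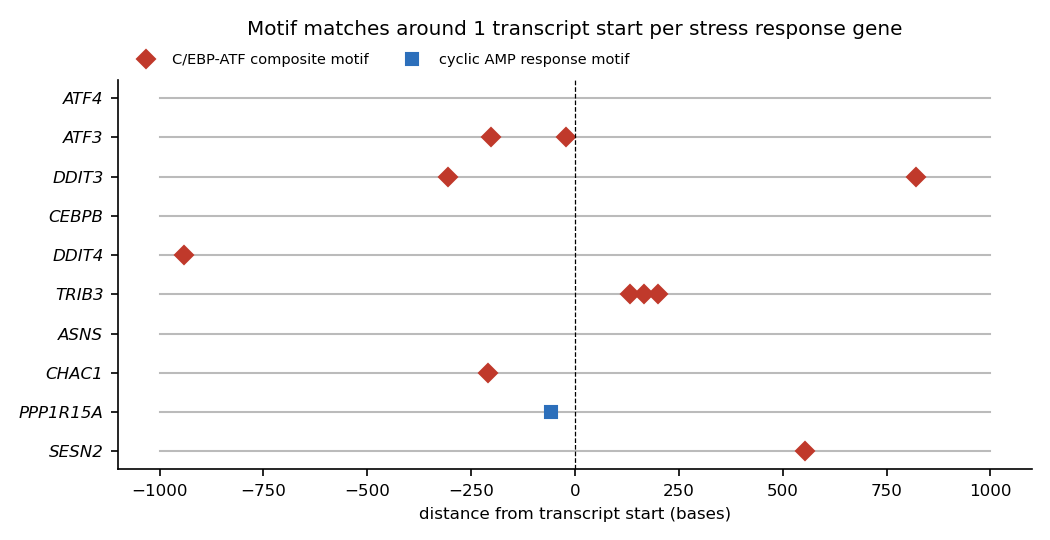
Positions of the C/EBP-ATF composite motif (diamonds) and the cyclic AMP response motif (square) in bases from the start of 1 chosen transcript of each of the 10 genes, within 1000 bases on either side (grey lines). ATF4, CEBPB and ASNS have no mark, TRIB3 has 3 marks between 133 and 199, and the single square is PPP1R15A at -58.

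ATF4 (GRCh37 chr22:39915700-39918688, plus strand, 3 exons), the regulator of the branch, had nearly the same level in both groups. Its level was 18.7, 19.5 and 18.8 counts per 1000000 counts of the library (CPM) in pGIPZ-NC replicates 1 to 3 and 19.0, 19.9 and 19.6 CPM in shUSP39. The ranges overlapped, and the libraries of each group lay within a coefficient of variation of 2.30% and 2.52%. The fitted log2 fold change of shUSP39 over pGIPZ-NC was 0.01 (SE 0.09), a fold of 1.01. Leaving out each library in turn moved it between -0.01 and 0.03, and upper-quartile scaling gave 0.06. The ATF4 row is transcript NM_001675.4, 1 of 2 RefSeq messenger RNAs of the gene, so the other was not counted separately here.

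Among the basic leucine zipper partners, only DDIT3 could be described. DDIT3 encodes CHOP, a C/EBP family factor linked to cell death under long stress, and lies at GRCh37 chr12:57910371-57915520 on the minus strand. Its level was 1.64, 1.58 and 2.01 CPM in pGIPZ-NC against 2.33, 2.38 and 3.16 CPM in shUSP39, from 52 to 57 and 72 to 93 counts. The groups did not overlap, but the third shUSP39 library was at 1.81 times the pGIPZ-NC mean while the other two were at 1.33 and 1.36 times it. The fitted log2 fold change was 0.56 (SE 0.27), from 0.41 to 0.67 when 1 library was left out. ATF3, a stress-induced factor that can repress as well as activate, had 0, 0 and 1 counts in pGIPZ-NC and 0, 3 and 0 in shUSP39. All of these are at or under a floor of 3 counts, so no fold is given. Low expression of ATF3 and reads left out of the count cannot be told apart here. The ATF3 row is 1 of 6 RefSeq messenger RNAs of the gene and the DDIT3 row 1 of 8. In the same table SHMT2 and the leucyl-tRNA synthetase LARS1 also had at most 3 counts in any library, and the reason was not tested.

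The feedback genes stood higher in shUSP39. PPP1R15A (GRCh37 chr19:49375469-49379316, plus strand, 3 exons) encodes GADD34, the stress-induced subunit that brings protein phosphatase 1 to eIF2 and restores translation. Its level was 59.5, 58.6 and 61.5 CPM in pGIPZ-NC against 127, 138 and 133 CPM in shUSP39. The lowest shUSP39 library was above the highest pGIPZ-NC library by more than the whole range within either group. The means were 59.9 ± 1.47 and 133 ± 5.54 CPM (SD, n = 3 each), and the fitted log2 fold change was 1.12 (SE 0.05), from 1.10 to 1.15 with 1 library left out. PPP1R15A has a single RefSeq messenger RNA, which the table counts.

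TRIB3 (GRCh37 chr20:343479-378203, plus strand) encodes a pseudokinase that binds ATF4 and CHOP and dampens their activity. Its level was 13.9, 11.7 and 11.1 CPM in pGIPZ-NC against 23.8, 19.6 and 27.1 CPM in shUSP39. The groups did not overlap, and the shUSP39 libraries were uneven, at 1.94, 1.60 and 2.22 times the pGIPZ-NC mean. The fitted log2 fold change was 0.92 (SE 0.12), with a range of 0.80 to 1.03 over the fits without 1 library. Almost all of its counts came from NM_021158.4, with 443, 384 and 304 counts in pGIPZ-NC and 747, 577 and 793 in shUSP39, while NM_001301201.1 had at most 16 counts in any library. The table holds 2 of the 6 RefSeq messenger RNAs of TRIB3.

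SESN2 and DDIT4 both encode inhibitors of the growth kinase complex mTORC1. SESN2 (sestrin 2, GRCh37 chr1:28586029-28609002, plus strand, 10 exons) was at 44.9, 47.3 and 44.2 CPM in pGIPZ-NC against 90.0, 92.8 and 90.9 CPM in shUSP39. Its libraries were tight in both groups, with coefficients of variation of 3.62% and 1.59%, and the fitted log2 fold change was 0.98 (SE 0.06), a fold of 1.97. DDIT4 (REDD1, GRCh37 chr10:74033678-74035794, plus strand) was at 35.0, 37.4 and 32.2 CPM in pGIPZ-NC against 41.1, 42.0 and 44.1 CPM in shUSP39. The gap between the DDIT4 groups was smaller than the range within pGIPZ-NC, and its fitted log2 fold change was 0.26 (SE 0.08), a fold of 1.19. SESN2 and DDIT4 have a single RefSeq messenger RNA each.

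Both metabolic genes stood higher in shUSP39. CHAC1 (GRCh37 chr15:41245160-41248710, plus strand, 3 exons) encodes an enzyme that breaks down glutathione. Its level was 3.72, 5.07 and 5.30 CPM in pGIPZ-NC against 9.94, 11.7 and 9.45 CPM in shUSP39, without overlap. The fitted log2 fold change was 1.12 (SE 0.16), from 0.97 to 1.20 with 1 library left out. ASNS (asparagine synthetase, GRCh37 chr7:97480989-97501854, minus strand, 13 exons) had 12, 21 and 11 counts in pGIPZ-NC and 34, 49 and 38 in shUSP39, or 0.466 ± 0.149 and 1.33 ± 0.277 CPM (SD, n = 3 each). Its fitted log2 fold change was 1.47 (SE 0.44), with a range of 1.30 to 1.76 over the fits without 1 library.

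The ASNS value depended on which transcript was counted. NM_133436.3 had 1, 6 and 5 counts in pGIPZ-NC and 16, 26 and 17 in shUSP39, and NM_183356.3 had 11, 15 and 6 against 18, 23 and 21. With the transcript of most counts alone the log2 fold change was 0.98. The table counts 2 of 7 RefSeq messenger RNAs of ASNS. Across all tested genes, the median level was 60.4 CPM for the 3977 genes with 1 RefSeq messenger RNA, 6.27 CPM for the 4580 with 2 to 5, and 3.44 CPM for the 1570 with 6 or more. How reads shared by several transcripts of a gene were counted is not given in the sources used here. The CHAC1 row, like that of ATF4, is 1 of 2 RefSeq messenger RNAs. The levels of ASNS, DDIT3, ATF3, TRIB3, ATF4 and CHAC1 may therefore leave out part of their reads. Any fold change given for these genes covers the counted transcripts only. Whether the share of each transcript differed between the groups was not tested.

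**Figure D2:**
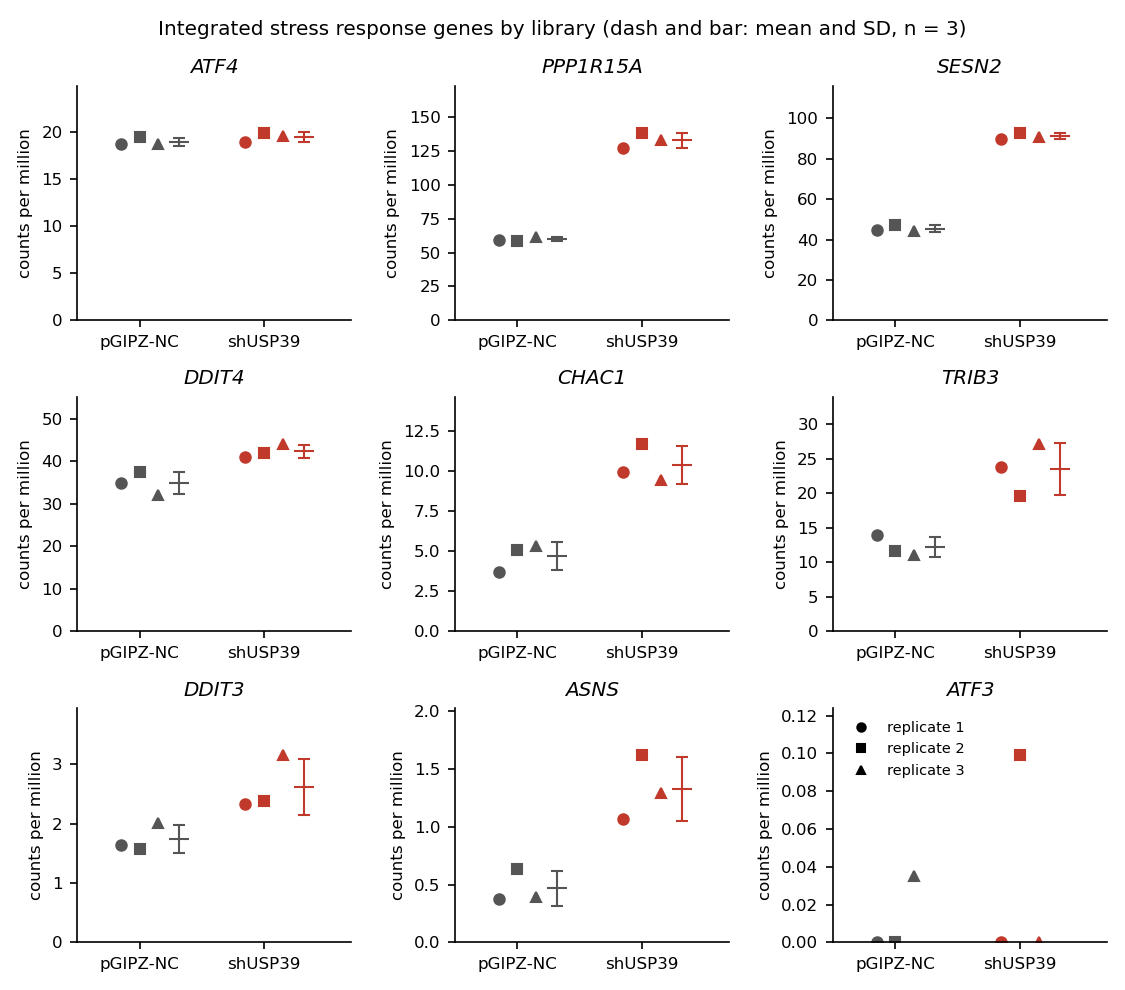
Level of 9 stress response genes in each library, in CPM on linear axes that start at 0, for pGIPZ-NC (grey) and shUSP39 (red). Point shapes mark the replicates, the dash with its bar is the mean and SD of 3 libraries (not drawn for ATF3), and ATF4 overlaps between groups while PPP1R15A at 58.6 to 61.5 against 127 to 138 CPM does not.

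In 7 of the 8 genes that passed the filter (all but ATF4) every shUSP39 library stood above every pGIPZ-NC library, as in 24.1% of all tested genes. At an adjusted p under 0.05 and over 2-fold 3 were higher (ASNS, CHAC1 and PPP1R15A), against 4.53% of all tested genes higher and 2.28% lower, and without the fold limit 6 were higher and 0 lower, against 16.1% and 17.5%. These are counts over genes chosen with this contrast in view and over those that passed the filter, so nothing is read from them. With shUSP39 replicate 1 alone, the ratio to the pGIPZ-NC mean was 1.00 in ATF4, 1.18 in DDIT4, 1.33 in DDIT3, 1.94 in TRIB3, 1.98 in SESN2, 2.12 in CHAC1 and in PPP1R15A, and 2.29 in ASNS.

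The genes whose level followed 3 of the set most closely over the 6 libraries were sought among 6583 genes of at least 5 CPM, as Pearson's r of log2 CPM. Nearest to ATF4 were C1orf53 (r = 0.997), SETD6 (0.976) and BMT2 (0.965). Nearest to CHAC1 were PDIA2 (0.997), MGAT5 (0.995) and C17orf100 (0.995), and nearest to DDIT3 were RNF113A and MED26 (0.991 each) and GNPTG (0.990). With 6 libraries in 2 groups and so many genes compared, high values of r are a description of these libraries only.

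The other genes below come from lists of the pathway and of neighbouring responses, and each was tested in a fit over all 10695 genes, with edgeR's quasi-likelihood test and Benjamini-Hochberg adjustment. In each list the counts are those past an adjusted p under 0.05. They are given beside 16.1% of all tested genes higher and 17.5% lower, and a median log2 fold change of 0.01 over those genes. All lists were chosen with earlier results of these data known, so none of the counts is independent evidence of direction.

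Upstream of ATF4, of 7 tested kinases and their activators 1 rose and 2 fell, and the median log2 fold change was -0.20. The 4 eIF2 kinases sense heme loss (EIF2AK1), double-stranded RNA (EIF2AK2), stress of the endoplasmic reticulum (EIF2AK3, PERK) and amino acid shortage (EIF2AK4, GCN2). Of these only EIF2AK4 passed the test. It was at 483 ± 4.80 CPM in pGIPZ-NC against 388 ± 5.80 CPM in shUSP39 (SD, n = 3 each), a log2 fold change of -0.34 (SE 0.03, edgeR adjusted p = 6.00e-09). GCN1, which activates EIF2AK4 on stalled ribosomes, fell further, by 0.72 on the log2 scale (SE 0.03, edgeR adjusted p = 4.35e-16). EIF2AK1 had a log2 fold change of 0.04 (SE 0.11), EIF2AK3 of -0.01 (SE 0.13) and EIF2AK2 of -0.20 (SE 0.50). Their edgeR adjusted p were 0.809, 0.963 and 0.805. EIF2AK2 had only 11 to 27 counts a library, so its change is known less well than those of the other kinases. Whether reads left out of the count lowered its level was not tested. OMA1 and DELE1 relay mitochondrial stress to EIF2AK1. OMA1 rose by 0.27 (SE 0.09, edgeR adjusted p = 0.0150), a call lost without pGIPZ-NC replicate 2 (0.0510), pGIPZ-NC replicate 3 (0.124) or shUSP39 replicate 1 (0.108). DELE1, listed as KIAA0141, had a log2 fold change of -0.22 (edgeR adjusted p = 0.0530), and was past the threshold without pGIPZ-NC replicate 2 (0.0269).

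Of 11 tested subunits of eIF2, of its exchange factor eIF2B and of the eIF2 phosphatase, 0 rose and 4 fell, with a median of -0.04. The largest falls were in the eIF2B subunits EIF2B2, from 173 ± 4.78 to 130 ± 5.57 CPM, a log2 fold change of -0.44 (SE 0.05, edgeR adjusted p = 1.90e-08), and EIF2B5, from 169 ± 4.86 to 140 ± 1.04 CPM, a log2 fold change of -0.30 (SE 0.04, edgeR adjusted p = 3.47e-06).

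Close relatives of the stress response genes were compared with them next. Of 10 tested relatives 6 rose and 0 fell, with a median of 0.28. PPP1R15B is the constitutive counterpart of PPP1R15A in the eIF2 phosphatase, and at 473 ± 9.59 CPM in pGIPZ-NC against 490 ± 14.7 CPM in shUSP39 it had a log2 fold change of 0.03 (SE 0.03, edgeR adjusted p = 0.619). CHAC2, the relative of CHAC1 with slow activity, rose from 1.02 ± 0.0950 to 2.23 ± 0.403 CPM, a log2 fold change of 1.10 (SE 0.31, edgeR adjusted p = 0.00665). Among the sestrins, SESN1 had a log2 fold change of 0.04 (SE 0.17, edgeR adjusted p = 0.901), and SESN3, on 4 to 25 counts a library, of 1.10 (SE 0.67, edgeR adjusted p = 0.225). TRIB2 rose by 0.28 (SE 0.08, edgeR adjusted p = 0.00978), lost without pGIPZ-NC replicate 2 (0.0563) or shUSP39 replicate 2 (0.0741). TRIB1 also had 0.28 (SE 0.12) but did not pass the test (edgeR adjusted p = 0.0706), though it did with library size only (0.0484) and with upper-quartile scaling (0.0362).

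Among the transcription factors related to ATF4, ATF3 and CEBPB, the largest rise was in JDP2, a relative of ATF3 that it can pair with. JDP2 had 20, 22 and 17 counts in pGIPZ-NC and 76, 64 and 80 in shUSP39, a log2 fold change of 1.90 (SE 0.33, edgeR adjusted p = 4.94e-05), and with its most counted transcript alone it had 1.46 (0.0558). CEBPG, a partner of ATF4, rose from 17.2 ± 1.21 to 24.7 ± 1.97 CPM, a log2 fold change of 0.50 (SE 0.10, edgeR adjusted p = 1.83e-04). ATF5 rose by 0.26 (SE 0.09, edgeR adjusted p = 0.0312), but leaving out pGIPZ-NC replicate 1 (0.0979), pGIPZ-NC replicate 2 (0.0921), shUSP39 replicate 2 (0.151) or shUSP39 replicate 3 (0.0993), or counting its main transcript alone (0.467), ended that call. CEBPD rose by 0.24 (SE 0.07, edgeR adjusted p = 0.0134), lost without pGIPZ-NC replicate 1 (0.0996) or shUSP39 replicate 3 (0.156). CEBPE and DDIT4L had at most 2 counts in a library, and CEBPA had no row.

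**Figure D3:**
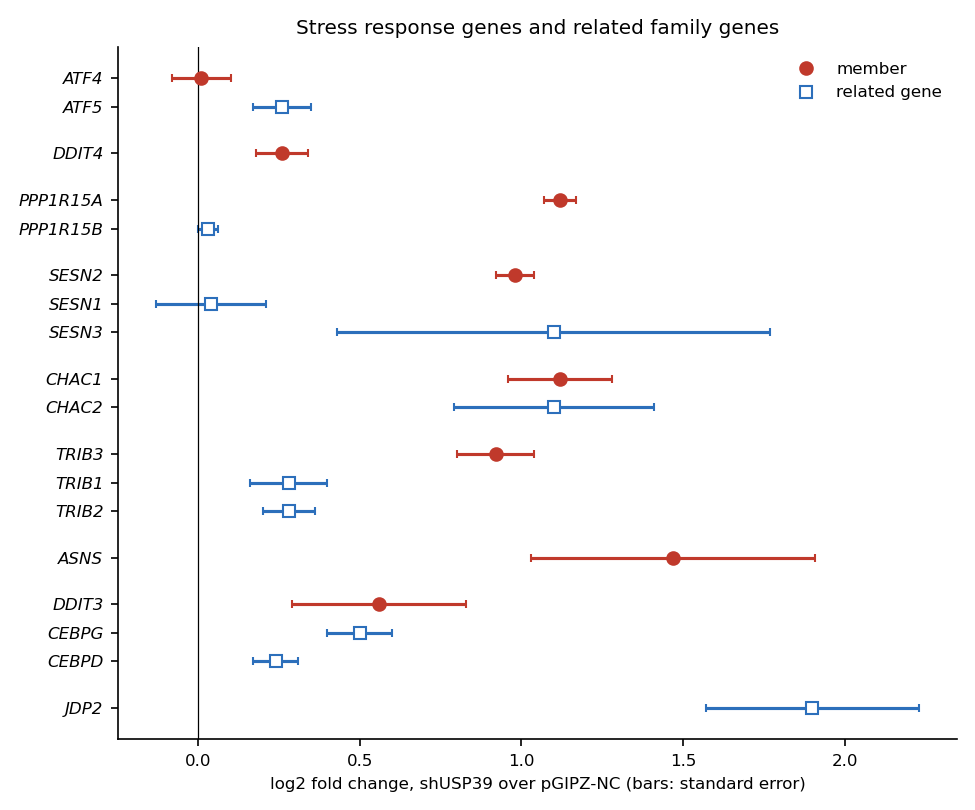
Fitted log2 fold change of shUSP39 over pGIPZ-NC, with its standard error, for 8 stress response genes (red, described only) and 10 related genes (blue squares). PPP1R15A at 1.12 lies to the right of PPP1R15B at 0.03 and SESN2 at 0.98 of SESN1 at 0.04, while CHAC1 at 1.12 and CHAC2 at 1.10 are side by side, with JDP2 at 1.90 the farthest right.

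Genes that ATF4 is known to raise were grouped by function. Of 8 tested amino acid transporters 5 rose and 0 fell, with a median of 0.46. SLC7A11, the cystine importer, rose from 36.6 ± 1.25 to 70.4 ± 2.77 CPM, a log2 fold change of 0.92 (SE 0.07, edgeR adjusted p = 1.30e-11). Its partner chain SLC3A2 rose from 48.6 ± 1.92 to 77.2 ± 4.77 CPM, a log2 fold change of 0.64 (SE 0.06, edgeR adjusted p = 7.48e-09). SLC7A5, SLC1A4 and SLC1A5, carriers of large neutral amino acids, serine and glutamine, also rose, by 0.43, 0.48 and 0.31.

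Of 9 tested enzymes of amino acid and one-carbon synthesis 2 rose and 1 fell, with a median of 0.01, equal to that of all genes. In serine synthesis, PHGDH rose by 0.13 (SE 0.04, edgeR adjusted p = 0.00549) and PSAT1 fell by 0.25 on the log2 scale (SE 0.06, edgeR adjusted p = 0.00108). PCK2 rose by 0.57 (SE 0.19, edgeR adjusted p = 0.0243), a call that did not hold with its main transcript alone (0.12, adjusted p = 0.762), nor without pGIPZ-NC replicates 1 (0.0744) or 2 (0.115) or shUSP39 replicates 1 (0.0824) or 3 (0.0680). Of 10 tested tRNA synthetases and the tRNA exporter XPOT, 2 rose and 2 fell, with a median of -0.02. WARS1 rose by 0.34 (edgeR adjusted p = 0.00686, and 0.0575 without pGIPZ-NC replicate 1) and AARS1 by 0.22 (5.19e-06), while NARS1 had -0.38 (4.28e-09) and EPRS1 -0.16 (3.74e-04), the last pair being falls.

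The remaining ATF4 and CHOP targets were counted next. Of 19 tested 12 rose and 0 fell, with a median of 0.42, and 5 rose over 2-fold. This list shares ATF5, CEBPG and JDP2 with the relatives above. PMAIP1 encodes NOXA, a protein that triggers apoptosis. It had 4, 2 and 4 counts in pGIPZ-NC and 73, 55 and 57 in shUSP39 (edgeR adjusted p = 1.96e-07), and no fold is given since pGIPZ-NC was near the floor. STC2, a secreted glycoprotein, was at 66.8, 60.1 and 62.8 CPM in pGIPZ-NC against 176, 176 and 175 CPM in shUSP39, a log2 fold change of 1.45 (SE 0.05, edgeR adjusted p = 3.90e-18). The secreted stress factor GDF15 rose from 3.50 ± 0.536 to 8.26 ± 0.237 CPM, and GADD45A, a gene of growth arrest, from 5.83 ± 0.679 to 12.1 ± 0.609 CPM. STC2, GDF15 and GADD45A, like SLC7A5, SLC1A4 and SLC1A5, were named after their values were seen. So were HSPA5 and TNFRSF10B, which are named with the other stress responses below.

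Rises were counted apart for targets with and without the composite motif. In the 4 lists of transporters, synthesis enzymes, tRNA synthetases and other targets, 31 of 59 genes scanned held TGATGCAA in the window, lists that were made from known targets. Of the tested genes with it 10 of 22 rose, and of those without it 11 of 24 rose. No test was made of this difference. In SLC7A11, STC2, PMAIP1, JDP2 and CEBPG it was present, and in GDF15 and GADD45A it was not.

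Lists of other stress responses were counted because several share genes with the ATF4 branch. Of 20 endoplasmic reticulum chaperones and related genes 15 rose and 1 fell, with a median of 0.39, and 1 of the 21 genes scanned held the composite motif. HSPA5 (BiP), the main chaperone of the endoplasmic reticulum, was at 0.75 (SE 0.03, edgeR adjusted p = 2.04e-18), the co-chaperone DNAJB9 at 1.10 (SE 0.09, 1.64e-10) and DERL3, of protein disposal, at 1.45 (SE 0.25, 4.25e-05). The sensor ATF6 fell by 0.16 on the log2 scale (SE 0.05, edgeR adjusted p = 0.0122), but not past the threshold with upper-quartile scaling (0.0713) or without pGIPZ-NC replicate 1 (0.101) or shUSP39 replicate 3 (0.0924). Genes of this list had been seen to rise in earlier work on these libraries, so its count is not independent evidence of direction.

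Of 12 p53 targets 5 rose and 0 fell, with a median of 0.21. The largest rises were in GDF15 and in BTG2, the latter at 0.57 (SE 0.08, edgeR adjusted p = 3.61e-06). GDF15, TNFRSF10B, which was also among the 5 rises, and BBC3, which did not pass, are in the ATF4 and CHOP list too. Of 9 hypoxia targets 2 rose, ADM at 0.70 (SE 0.09, edgeR adjusted p = 9.56e-07) and the glucose carrier SLC2A1 at 0.39 (SE 0.04, 3.08e-08). The fall of BNIP3, of -0.10 (edgeR adjusted p = 0.0442), was lost in 10 of 15 alternatives, among them upper-quartile scaling (0.285) and the fits without 1 library other than shUSP39 replicate 3 (0.0535 to 0.171). Of 13 immediate early genes 8 rose and 1 fell, with a median of 0.21. JUN, a partner of ATF proteins, rose from 83.2 ± 5.80 to 258 ± 5.20 CPM, a log2 fold change of 1.61 (SE 0.05, edgeR adjusted p = 1.71e-19), and IER3 by 1.26 (SE 0.05, 1.02e-17), while EGR1 fell by 0.20 on the log2 scale (SE 0.04, edgeR adjusted p = 3.15e-04). Of the cell markers, LUM fell from 4.68 ± 1.10 to 0.382 ± 0.246 CPM, a log2 fold change of -3.63 (SE 0.36, edgeR adjusted p = 7.34e-09), while COL1A1 had -0.20 (SE 0.16, edgeR adjusted p = 0.380). KRT18 was at 22.2 ± 1.69 CPM in pGIPZ-NC against 33.1 ± 3.03 CPM in shUSP39, and MUC16 had 1 to 5 counts in pGIPZ-NC and 6, 150 and 71 in shUSP39. The part of cell makeup in the values above was not tested.

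**Figure D4:**
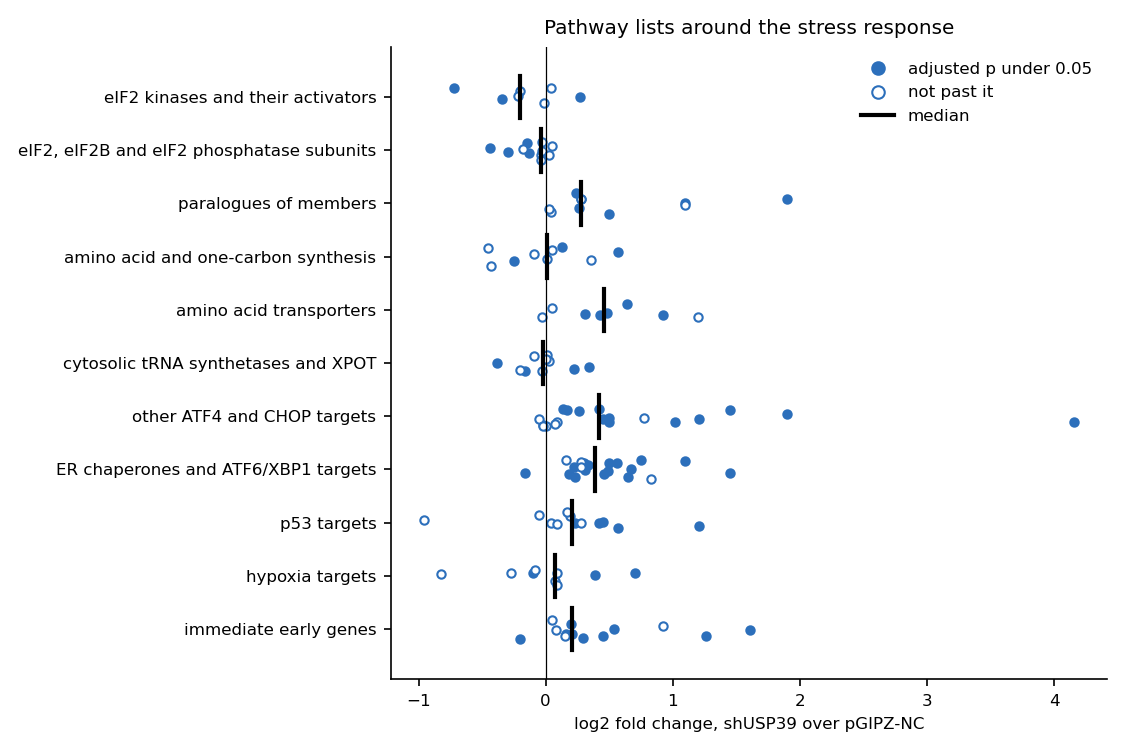
Log2 fold change of shUSP39 over pGIPZ-NC for each tested gene of 11 pathway lists, filled where edgeR's adjusted p was under 0.05 and open elsewhere, with the list median as a black bar. Medians reach 0.46 in the transporters, 0.42 in other ATF4 and CHOP targets and 0.39 in the chaperones, and lie at -0.20 in the eIF2 kinases and their activators. The vertical jitter of points has no meaning.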

How the data were processed

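Read counts per RefSeq messenger RNA transcript, not normalised, were deposited by the authors as 1 table with a column per library. HISAT2, Cufflinks and hg19 are named in the submitters' processing notes, and the counter, annotation and handling of shared reads are not given in the sources used here. The deposited columns of group means, fold, p-value and q-value hold the authors' comparison and were not used. Counts of 21368 rows were summed to 16571 gene symbols, of which 46 of 47 in date form were first restored from the transcript accession. CPM is the count per 1000000 counts of the library. Fits used edgeR 4.0.16 in R 4.3.3 (filterByExpr, TMM, robust quasi-likelihood, group as the only term, all 6 libraries), a Benjamini-Hochberg adjusted p under 0.05 and, where stated, a 2-fold limit after the study's own. The fit was also run on simulated counts with a common spread and only large changes. That run does not cover the smaller changes given above. SE is the absolute log2 fold change over the square root of F. The biological coefficient of variation was 7.59%. No pair of libraries agreed within counting noise, and p-values measure the spread between these libraries, which may be technical. A floor of 3 counts covers counting error only.

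The members and gene lists were chosen with earlier results of these data known. Named genes were the members, all eIF2 kinases and relatives, and up to 2 rises and 2 falls past the adjusted p per list. The 3 nearest patterns of ATF4, CHAC1 and DDIT3 were named too, and further genes, as stated above, after their values were seen. Gene positions came from GENCODE 44 on GRCh37 and transcript numbers from a RefSeq table. Alternatives were DESeq2 1.42.0 size factors and Wald test, upper-quartile scaling, library size only, limma 3.58.1 voom, no filter, a minimum of 10 counts per library, the most counted transcript, the replicate block, a 1.5-fold limit and each library left out.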

Additional observations from a re-analysis of the deposited data

How the results depend on the processing

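Genes called at 2-fold numbered 728, and 471 with at least 10 counts in every library, where fewer genes were tested, and 1225 with a 1.5-fold limit. Leaving out 1 library gave 677 to 836 called genes and 3095 to 3571 past the adjusted p, against 3598. Higher in shUSP39 were 48.0% of the genes past the adjusted p, and 58.0% with upper-quartile scaling, which moved the median of all genes by 0.044 on the log2 scale. The count past the adjusted p in each list, rises and falls summed, stayed within 1.5 times its value under all alternatives run. Counted apart over the scalings, falls went from 1 to 0 with upper-quartile scaling in the chaperones (15 rises to 16) and the hypoxia targets (2 rises in both), and in the hypoxia targets also with library size only. The log2 fold change of none of the 8 described genes changed sign under a scaling, filter or test, and that of ATF4 lay between -0.01 and 0.06 over all alternatives. Of 52 other named genes 11 changed side of the threshold under at least 1 alternative, and none of those that passed reversed.

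Deviations of same-numbered libraries correlated at 0.069, 0.005 and 0.022, and those of differently numbered ones at -0.052 to 0.030. These values show little pairing by replicate number and cannot exclude a weak one. With the replicate block 745 genes were called and 3981 passed the adjusted p, and DELE1 then passed (edgeR adjusted p = 0.0395). The lowest counts were those of ATF3, ASNS and DDIT3, and whether depth or the counting of shared reads limits them was not tested.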
